A study of Mus musculus with 4 samples.

Results

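The transcripts of 10 cytokine genes that T cells can secrete or carry on their surface (Ifng, Tnf, Il10, Il2, Il21, Csf1, Csf2, Lta, Ltb and Tgfb1) were followed across 4 subsets of mouse CD8 T cells. The genes were chosen by name as a family, and every non-control array probe whose RefSeq accession belongs to one of them was used. This gave 16 probes for 10 genes, out of 56597 probes and 22909 genes named by accession. The cells came from the spleen and lymph nodes of untreated C57BL/6 mice, 1 to 3 months old, and were separated by flow cytometry. All of the mice were PD-1-/-, so every subset, the naive phenotype included, lacked the coinhibitory receptor PD-1, and no PD-1-sufficient cells were analysed here. P1 was CD44low CD62Lhigh (naive phenotype), P2 was CD44high CD62Lhigh (central memory phenotype), P3 was CD44high CD62Llow (effector and effector memory phenotype) and P4 was CD44low CD62Llow, the subset named in the study's title. The sources used here do not say how many mice gave each sorted sample. Since 1 array was run per subset, the differences given are sizes without a test of the subsets.

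Levels are log2 processed signals relative to the 75th percentile of the probes on the same array, so that 0 is that percentile and 1 unit is 2-fold. A probe was counted as detected where the scanner software flagged its spot as well above background, which was so for between 27825 (P2) and 30804 (P3) probes. Where 1 of a pair of subsets was not above background, the difference is a bound, computed against the lowest level well above background on that array (between -4.82 on the P3 array and -4.05 on that of P2) or the probe's own level if that was higher, and is written as "at least". Repeated spots of other probes gave a 95% half-width for a log2 difference of 0.18 at levels of 0 or more, 0.37 at levels from -3 to 0 and 0.72 below -3. They describe how well a spot repeats on 1 array, while the spread from mouse to mouse or sort to sort was not measured. All 12 genes fixed as markers of CD8 T cells and of the sort were above background on every array. Among them Cd8a, a CD8 coreceptor chain, stood between 5.30 and 5.61. Cd44 stood at -1.27 (P1), 2.79 (P2), 2.65 (P3) and -0.71 (P4). The arrays measured bulk RNA, in which fewer cells of a type and less RNA per cell cannot be told apart.

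Cytokines are small secreted proteins by which lymphocytes act on other cells, and antigen-experienced CD8 T cells are known for rapid transcription of interferon gamma and tumour necrosis factor when the T cell receptor is engaged. Many cytokine genes are activated through the factors NFAT, AP-1 and NF-kappaB, and their transcripts are usually short-lived. CD8 T cells in a resting state often hold low amounts of such transcripts, and transcript and secreted protein need not follow each other. The 10 genes fall into inflammatory effector cytokines (Ifng, Tnf, Lta), colony-stimulating factors (Csf1, Csf2), T cell growth and helper cytokines (Il2, Il21), regulatory cytokines (Il10, Tgfb1) and a membrane-anchored ligand of lymphoid tissue organisation (Ltb). Tnf, Lta and Ltb are neighbours in the genome.

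Promoter sequences are shown for Ifng, Csf1 and Il21, 3 of the 4 genes with the widest ranges over the subsets, and for Tnf, whose range was narrow. They are the 250 bases before the annotated start from RefSeq (build GRCm38.p6), 5′ to 3′ on the strand of the gene, and capitals mark the NFAT core GGAAA on either strand.
Ifng (chr10:118440796-118441045, plus strand): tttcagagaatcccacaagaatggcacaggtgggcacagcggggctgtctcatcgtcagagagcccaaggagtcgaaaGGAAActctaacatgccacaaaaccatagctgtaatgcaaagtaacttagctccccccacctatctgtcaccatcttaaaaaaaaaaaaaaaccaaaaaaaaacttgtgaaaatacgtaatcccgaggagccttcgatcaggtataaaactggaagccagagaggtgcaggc
Csf1 (chr3:107760470-107760719, minus strand): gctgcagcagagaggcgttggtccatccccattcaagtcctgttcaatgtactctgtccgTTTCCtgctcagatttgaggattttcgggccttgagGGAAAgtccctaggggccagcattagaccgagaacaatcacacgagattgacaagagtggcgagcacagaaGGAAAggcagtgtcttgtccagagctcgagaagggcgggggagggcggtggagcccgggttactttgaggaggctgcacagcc
Il21 (chr3:37232637-37232886, minus strand): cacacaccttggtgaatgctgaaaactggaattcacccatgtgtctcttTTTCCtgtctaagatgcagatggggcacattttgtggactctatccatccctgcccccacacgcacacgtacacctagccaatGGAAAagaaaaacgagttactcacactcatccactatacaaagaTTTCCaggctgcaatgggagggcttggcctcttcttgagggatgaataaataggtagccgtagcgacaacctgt
Tnf (chr17:35202008-35202257, minus strand): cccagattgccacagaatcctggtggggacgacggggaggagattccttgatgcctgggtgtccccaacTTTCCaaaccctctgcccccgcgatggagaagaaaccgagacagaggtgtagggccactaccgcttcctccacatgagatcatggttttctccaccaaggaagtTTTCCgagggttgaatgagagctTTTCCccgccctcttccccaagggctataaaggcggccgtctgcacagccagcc
The core was present in 8 of the 9 member promoters in the table, all but that of Tgfb1, and in 55.6% of all 32851 promoters of that length. There were 3 matches each for Csf1, Il21 and Tnf, and 1 for Ifng, where 6.39% of all promoters held 3 or more. So Tnf, with a narrow range, held as many matches as Csf1, with the widest. The TATA box letters TATAAA were found for Ifng, Tnf, Il2 and Lta, against 12.4% of all promoters. The letters TGANTCA (AP-1), GGGNNTTCC (NF-kappaB) and GGTGTGA (T-box), searched on both strands, were in 0 of the 9 windows and in 6.75%, 4.98% and 3.33% of all promoters. Only this 9-base form of the NF-kappaB site was searched, so the 0 does not cover longer forms, such as gGGAAAgtcc in the Csf1 window. These are matches of letters in a short window, and no binding was measured.

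**Figure D1:**
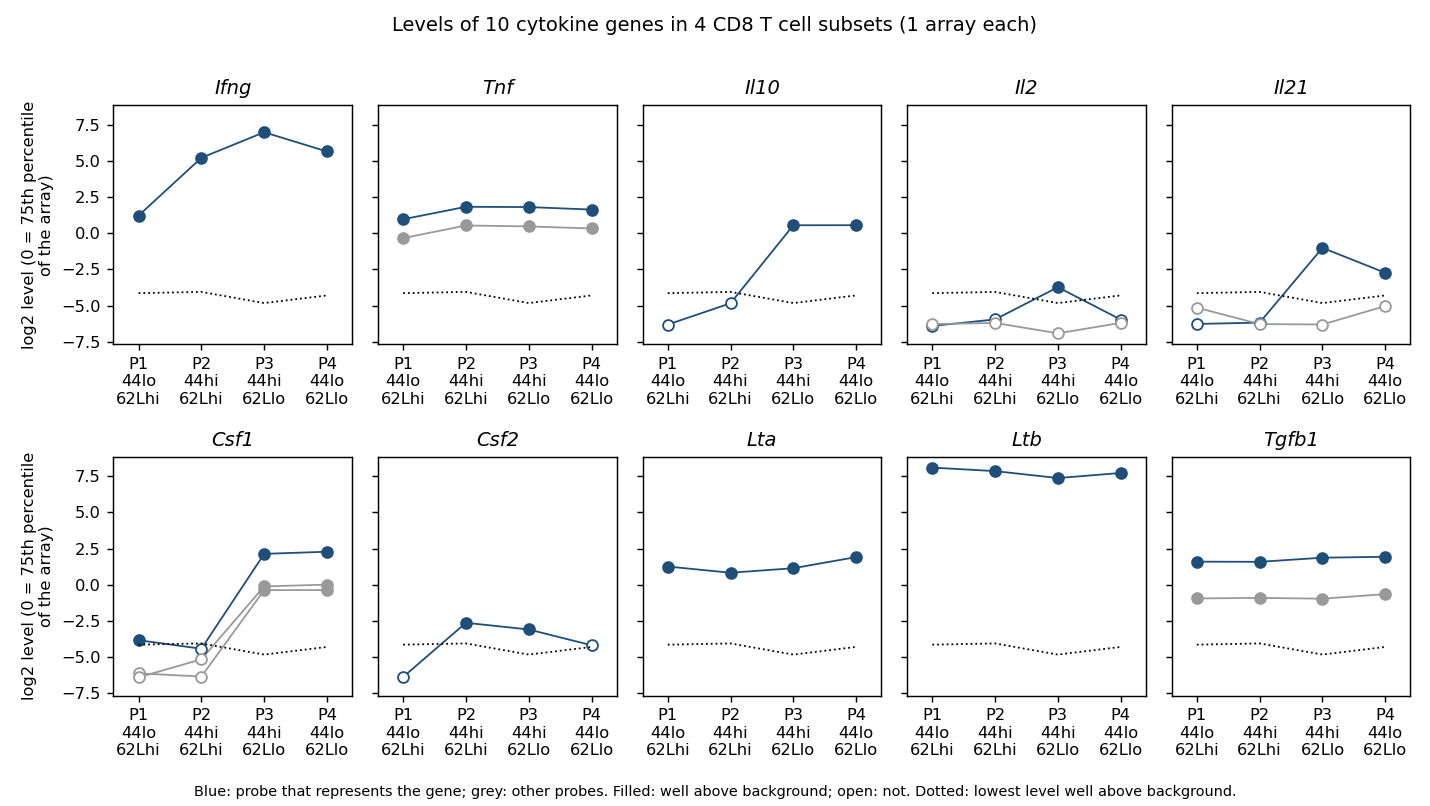
Level of each cytokine gene (log2, 0 is the array's 75th percentile) in P1 to P4, with blue for the probe that represents the gene, grey for its other probes, filled points for spots well above background, open points for spots that were not, and a dotted line at the lowest level well above background on each array. Il10 and Csf1 step up in P3 and P4, Ifng is lowest in P1 at 1.22 and highest in P3 at 6.97, and Tnf, Lta, Ltb and Tgfb1 stay within 1.08 of their own lowest level.

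The family differed between subsets mainly through Ifng, Csf1, Il10 and Il21. All 10 genes were above background in P3, 8 in P4 and 6 each in P1 and P2, and 5 (Ifng, Tnf, Lta, Ltb and Tgfb1) on every array. Of the 16 probes, 7 were above background on every array and 2 on none. The range over the 4 subsets, with undetected levels raised to the lowest detectable one, was 6.33 for Csf1, 5.75 for Ifng, 4.69 for Il10 and 3.13 for Il21. Ranges at least that wide were found in 0.369%, 0.543%, 1.32% and 4.53% of 14357 genes above background on at least 1 array. The remaining members had ranges between 0.35 (Tgfb1) and 1.55 (Csf2).

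P4 and P1 are both CD44low and differ in CD62L. Of the 10 members, 4 (Csf1, Il10, Ifng and Il21) exceeded P1 by 2-fold or more in P4 and 0 were lower, while 7.2% of 13160 measured genes were apart by that much, 5.43% higher and 1.77% lower. Higher genes were 75.4% of those apart, and 85.7% after normexp background correction. Il2 and Csf2 were not above background on either array of this pair. The median over the 8 members measured in this pair was 1.04, against -0.06 over all measured genes, and Il10 and Il21 entered only because they were above background in P4.
Against P2, 4 members (Csf1, Il10, Il21 and Lta) were higher in P4 by 2-fold or more and 1 (Csf2) lower, while 8.24% of 13125 genes were apart, 4.78% higher and 3.45% lower. Against P3, 0 members were higher and 3 (Ifng, Il21 and Csf2) lower, while 13.0% of 13988 genes were apart, 3.98% higher and 9.06% lower. These comparisons share the P4 array. The median over the measured members was 0.44 against P2 and -0.09 against P3, where that over all measured genes was 0 in both. Against P2, Csf1, Il10 and Il21 entered only because they were above background in P4, and Csf2 only because of P2. Against P3, Il2 and Csf2 entered only because they were above background in P3.
Between the other subsets, P2 exceeded P1 in Ifng and Csf2, 2 of the 10 members, while 7.28% of 12955 genes were apart, 4.75% higher and 2.52% lower. P3 exceeded P1 in 5 members (Csf1, Ifng, Il10, Il21 and Csf2), while 19.5% of 14088 genes were apart, 12.5% higher and 6.98% lower. P3 exceeded P2 in 4 members (Csf1, Il10, Il21 and Ifng), while 16.2% of 14012 genes were apart, 10.6% higher and 5.61% lower. After normexp correction, higher genes made up 75.8% rather than 64.1% of those apart for P3 and P1, and 76.8% rather than 65.4% for P3 and P2. None of the members was lower by 2-fold in these 3 comparisons. Il10, Il21, Il2 and Csf2 entered the pair of P3 and P1 only because they were above background in P3. So did Il10, Il21, Il2 and Csf1 in the pair of P3 and P2. Csf2 entered the pair of P2 and P1 only through P2, and Csf1 only through P1.

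**Figure D2:**
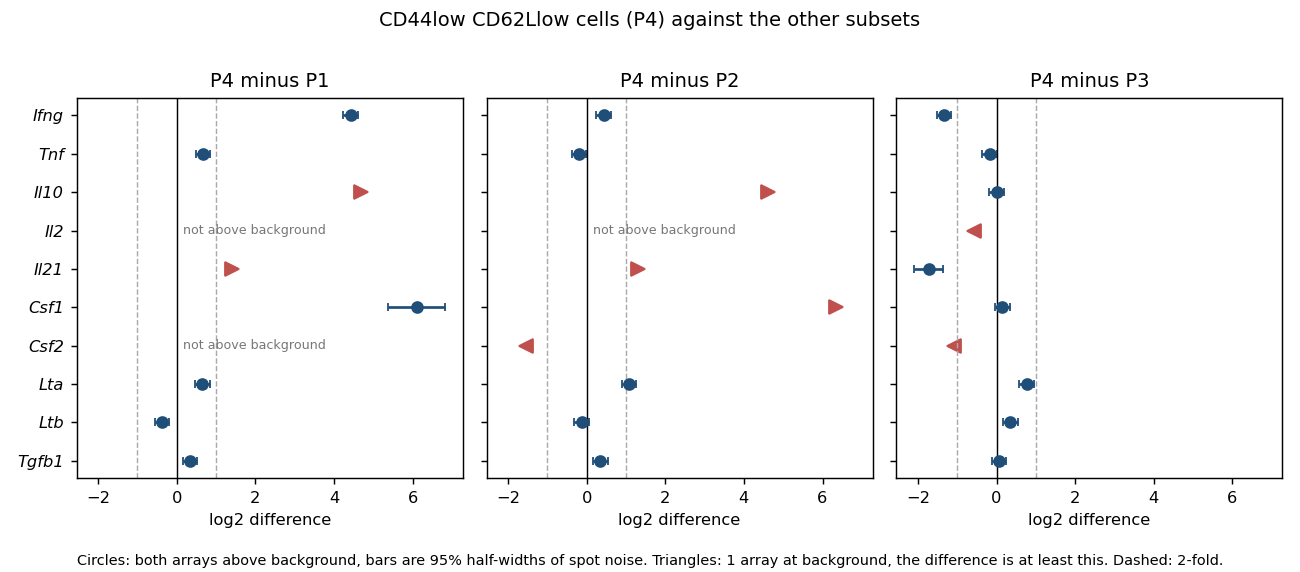
Log2 difference of P4 from P1, P2 and P3 for each cytokine gene, with circles and 95% half-widths of spot noise where both arrays were above background, triangles for bounds where 1 array was not, and dashed lines at 2-fold. The Csf1 and Il10 points lie beyond 4 against P1 and P2 and at 0.15 and 0.003 against P3, and Lta lies to the right of 0 in all 3 panels.

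Ifng encodes interferon gamma, the inflammatory cytokine by which CD8 T cells activate macrophages and raise antigen presentation. Its level was 1.22 (P1), 5.21 (P2), 6.97 (P3) and 5.64 (P4). Every antigen-experienced phenotype and P4 thus lay far above P1, with P3 the highest. P4 exceeded P1 by 4.42 ± 0.18 on the log2 scale (21.4-fold, half-width of spot noise), a difference reached or exceeded by 52 of 13160 genes, Ifng itself included. P4 exceeded P2 by 0.44, or 1.35-fold, which is larger than spot noise but below 2-fold. P4 was 1.33 below P3, or 2.51-fold lower. The difference between CD44high and CD44low cells was 3.99 at high CD62L (P2 minus P1) and 1.33 at low CD62L (P3 minus P4). The difference linked to low CD62L was likewise 4.42 among CD44low and 1.76 among CD44high cells, so the markers did not add up on the log2 scale, by -2.66 with a half-width of spot noise of 0.26.

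Genes with the most similar course to Ifng, by the largest gap between their levels after each was centred on its own mean over the 4 subsets, were Fcer1g (gap 0.15), Pdgfb (0.30) and Bspry (0.37), out of 11024 candidates. Fcer1g, the signalling chain of several Fc and natural killer cell receptors, stood at -3.35 (P1), 0.90 (P2), 2.53 (P3) and 1.29 (P4). Its spot lay in a locally bright area of the P3 array. Pdgfb, a platelet-derived growth factor chain, stood at -2.40, 1.75, 3.20 and 2.43. These likenesses rest on 4 points, and Fcer1g belongs to the list of natural killer cell markers. Of that list, 5 of 10 genes were above background in P1, 8 and 9 in P2 and P3, and 8 in P4, with a summed level between 7.35 (P1) and 8.43 (P3). Most of the summed signal came from Nkg7 and Klrd1. Single genes of the list moved further against P1: 6 of 8 measured were higher by 2-fold or more in P4 (median 2.92). So were 6 of 8 in P2 (median 3.67) and 7 of 9 in P3 (median 4.20). Against P2, 0 of 8 were higher in P4 by that much and 2 were lower. Tyrobp, an adaptor of activating receptors, was higher in P4 than in P1 by at least 3.55 and Klre1 by at least 3.05. Klra8 was higher by 2.94 and Klrb1c by at least 2.91. In P2 these genes, in the same order, were above P1 by at least 3.70, at least 4.56, 6.33 and at least 3.63. The defining receptor gene Ncr1 was not above background on any array. The part of such cells in the Ifng levels was not tested.

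Tnf encodes tumour necrosis factor. Its level was 0.96 (P1), 1.82 (P2), 1.80 (P3) and 1.63 (P4). P1 was the lowest, and the other 3 lay within 0.19 of each other. P4 exceeded P1 by 0.67 ± 0.18 (1.59-fold), P2 exceeded P1 by 0.86 and P3 exceeded P1 by 0.84. P2 and P3 differed by -0.02 and P4 and P3 by -0.17, both within spot noise. A second Tnf probe gave the same order at a dimmer level, with differences from P1 of 0.66 in P4, 0.87 in P2 and 0.81 in P3. No difference in Tnf reached 2-fold on either probe.

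Lta encodes lymphotoxin alpha, a relative of tumour necrosis factor that is secreted as a homotrimer or held at the membrane by lymphotoxin beta. Its level was 1.25 (P1), 0.83 (P2), 1.14 (P3) and 1.91 (P4). P4 was thus the highest of the 4, with the other subsets spread over 0.43. It exceeded P1 by 0.65, P2 by 1.08 (2.11-fold) and P3 by 0.77, each beyond the spot noise of 0.18. P1 and P3 differed by 0.12, within spot noise. The Lta differences kept their sign and stayed between 0.65 and 1.11 under every scaling tried. Differences as high were common, since 1097 of 13160 genes were at least as far above P1, and Lta had a single probe.

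Ltb encodes lymphotoxin beta, which anchors lymphotoxin alpha at the cell surface and acts on stromal cells of lymphoid organs. Its level was 8.09 (P1), 7.84 (P2), 7.37 (P3) and 7.71 (P4). P1 was the highest and P3 the lowest, with a range of 0.72, and no spot was saturated. P4 differed from P1 by -0.37, from P2 by -0.13 and from P3 by 0.35. After quantile normalization the difference from P1 was -0.10, and the differences from P2 and P3 turned sign to 0.10 and -0.06. The P3 minus P1 difference was -0.72, and 0.07 after normexp correction. So the order of the subsets, the place of P1 included, depends on the processing.

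Csf1 encodes macrophage colony-stimulating factor, which sustains macrophages and monocytes. Its level was -3.83 in P1, not above background in P2 (-4.42), 2.13 in P3 and 2.28 in P4. Both CD62Llow subsets thus stood far above both CD62Lhigh subsets, with no overlap. P4 exceeded P1 by 6.11 ± 0.72 (68.9-fold), a difference reached by 14 of 13160 genes, Csf1 included, and exceeded P2 by at least 6.33 (at least 80.5-fold), reached by 2 of 13125. P3 and P4 differed by 0.15, within spot noise. Csf1 was measured by 3 probes, and the other 2, which carry the accession of another Csf1 transcript, were detected only in P3 and P4. Their bounds for P4 over P1 were at least 3.77 and at least 4.15, and their P4 minus P3 differences were 0.01 and 0.12. After normexp background correction the P4 minus P1 difference was 4.47.

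The genes nearest to Csf1 in course were Pdcd1 (gap 0.85), Septin4 (0.88) and Gzmb (1.11), out of 11156 candidates. Pdcd1, the gene disrupted in these mice, stood at -2.77 (P1), -2.53 (P2), 2.30 (P3) and 2.23 (P4), its spot lay in a locally bright area of 1 array, and whether its probe lies in the deleted part was not determined here. Gzmb, which encodes the cytotoxic protease granzyme B, stood at -2.04, -0.11, 5.65 and 4.62.

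Csf2 encodes granulocyte-macrophage colony-stimulating factor, a product of activated T cells. Its level was -2.63 in P2 and -3.09 in P3, and it was not above background in P1 (-6.37) or P4 (-4.18). Csf2 was thus the member that was detected only in the CD44high subsets, at dim levels. P4 was at least 1.55 below P2 (at least 2.93-fold lower) and at least 1.09 below P3. P2 and P3 differed by 0.46, within the spot noise of 0.72. After normexp background correction these bounds were -0.61 and -0.40, short of 2-fold, so the Csf2 calls rest on how dim spots are corrected.

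Il10 encodes interleukin 10, which restrains antigen-presenting cells and inflammation. Its level was 0.55 in both P3 and P4, and it was not above background in P1 (-6.31) or P2 (-4.84). The CD62Llow subsets thus stood together and apart from the CD62Lhigh ones. P4 exceeded P1 by at least 4.69 (at least 25.8-fold) and P2 by at least 4.60 (at least 24.3-fold), reached by 40 of 13160 and 17 of 13125 genes. P4 and P3 differed by 0.003, within spot noise. After normexp background correction the P4 minus P1 difference was 3.00. The nearest genes in course were Ica1 (gap 0.14), Pdcd1 (0.21) and Rasd2 (0.26), out of 11688 candidates, and of these Ica1 and Rasd2 were detected in P3 and P4 only.

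Il21 encodes interleukin 21, a helper cytokine for B cells and for CD8 T cells in lasting responses. One of its 2 probes read -1.01 in P3 and -2.73 in P4 and was not above background in P1 (-6.26) or P2 (-6.17). P3 was thus the highest, P4 lower, and the CD62Lhigh subsets undetected. P4 was 1.72 ± 0.37 below P3 (3.30-fold lower) and exceeded P1 by at least 1.40 (at least 2.65-fold) and P2 by at least 1.32. The second probe, with the same accession, was not above background on any array, with levels from -6.30 to -5.03. With the mean over both probes the P4 minus P1 and P4 minus P2 bounds were 0.26 and 0.17, and after normexp correction they were 0.73 and 0.79. The P4 minus P3 difference was -0.23 and -0.99 in these settings, so no 2-fold call of Il21 in P4 held in either. With the mean over both probes, P3 minus P1 was 0.48 and P3 minus P2 0.40, where the first probe alone gave at least 3.13 and at least 3.04. The nearest genes in course were Cbr3 (gap 0.09), Jazf1 (0.12) and Sulf2 (0.14), out of 11688 candidates.

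Il2 encodes the T cell growth factor interleukin 2. One of its 2 probes was above background in P3 alone, at -3.73, and read -6.40, -5.95 and -5.96 in P1, P2 and P4. The second was not above background on any array. The P4 minus P3 bound was -0.57, so a 2-fold difference between these subsets was not shown at this signal.

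Tgfb1 encodes transforming growth factor beta 1, which restrains T cells and is stored in a latent form. Its level was 1.59 (P1), 1.58 (P2), 1.87 (P3) and 1.93 (P4). The 4 subsets lay within 0.35, the narrowest range of the family, and 72.6% of genes had a range at least as wide. P4 exceeded P1 by 0.34 and P2 by 0.35, both past the spot noise of 0.18, and differed from P3 by 0.06. The second probe gave 0.30 and 0.26 for the first pair of differences but 0.31 for P4 minus P3, so the probes differed on P3. The P1 spot of the first probe lay in a locally bright area.

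With the spread set by the subsets, 3 of the 10 members (Csf1, Il10 and Il21) were at least 2-fold higher in both CD62Llow than in both CD62Lhigh subsets, with smallest gaps of 5.96, 4.60 and 1.32, against 2.31% of 14357 genes. Csf2 alone was at least 2-fold higher in both CD44high than in both CD44low subsets, with a smallest gap of 1.05, against 0.857% of genes. Il10 and Il21 were detected only in the CD62Llow subsets and Csf2 only in the CD44high subsets, so they entered only through the subsets where they are high. None of the 10 had the opposite order by at least 2-fold in either split, against 0.139% and 0.432% of genes. Below that threshold, Ltb was higher in both CD62Lhigh subsets and Lta in both CD44low subsets. Their smallest gaps were 0.13 and 0.12, within the spot noise of 0.18.

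**Figure D3:**
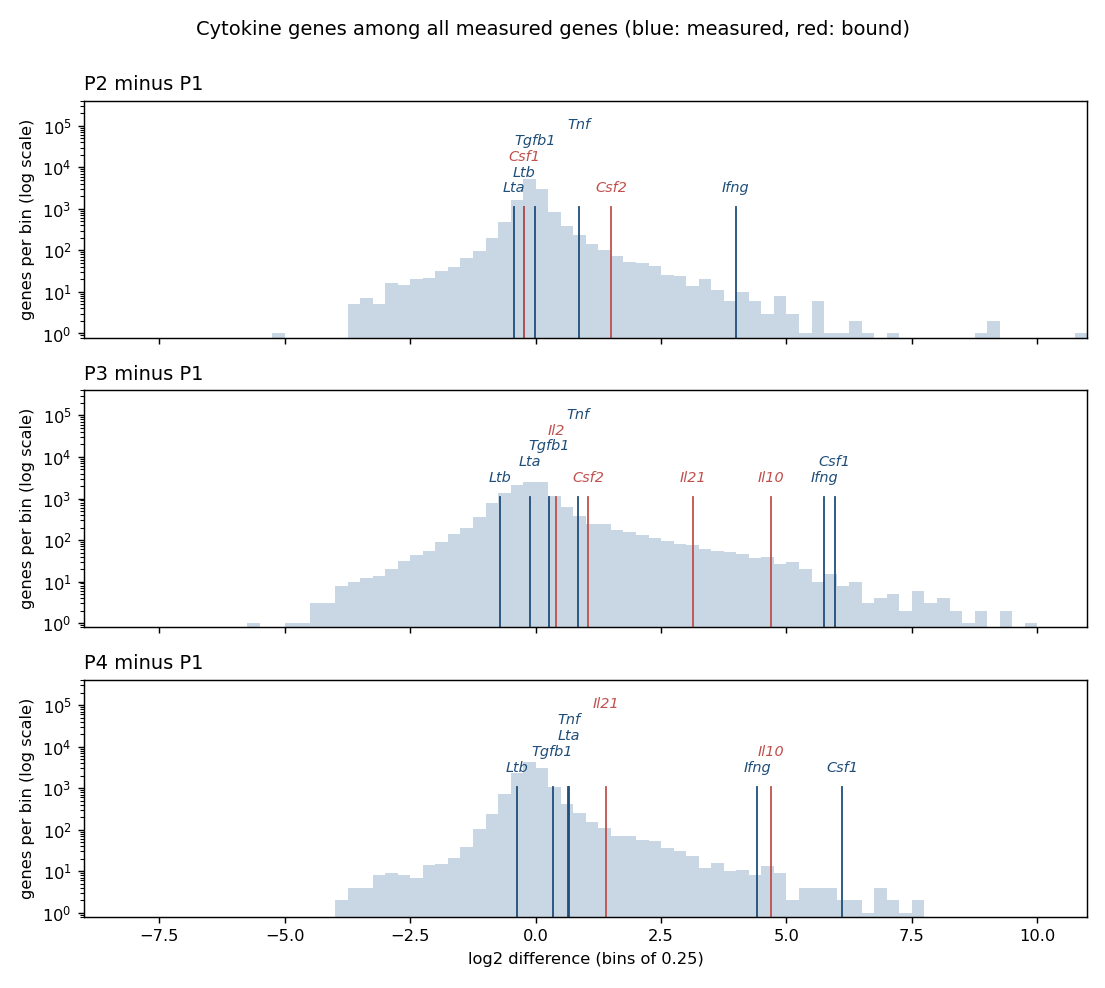
Number of measured genes per log2 difference bin of 0.25 (log count axis) for P2, P3 and P4 against P1, with the cytokine genes marked in blue where both arrays were above background and in red where the value is a bound. Ifng lies in the right tail of all 3 panels at 3.99, 5.75 and 4.42, Csf1 lies there in P3 and P4 at 5.96 and 6.11 but not in P2, and Tnf, Lta, Ltb and Tgfb1 lie within the central mass.

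P3 also carried transcripts of antigen-presenting cells. Of 12 markers of type 2 dendritic cells and class II presentation, 6 were above background in P1, 8 and 11 in P2 and P3, and 8 in P4, with summed levels (log2 of the summed linear signals) of 3.24, 3.65, 8.37 and 3.96. Of 10 type 1 dendritic cell markers, 4, 6, 10 and 6 were above background, with summed levels of 1.65, 2.67, 5.97 and 3.41. Of 12 macrophage and monocyte markers, 5, 7, 11 and 7 were above background, with summed levels of 6.91, 6.69, 7.20 and 6.51. The defining genes Xcr1, Clec9a, Cd209a, Clec10a, Lyz2 and Adgre1 were above background in P3 and not in P1, P2 or P4. Other genes of these lists were higher in P4 than in P1, with 5 of 8 measured type 2 and class II markers past 2-fold (median 1.58), 2 of 6 type 1 markers (median 0.74) and 1 of 7 macrophage markers (median 0.02). Among them Itgax, which encodes CD11c, was higher by at least 4.04, the class II genes H2-Eb1 by 2.37, H2-Aa by at least 2.10 and H2-Ab1 by 1.92, Irf8 by 2.01 and Wdfy4 by 1.73. P2 also exceeded P1 by 2-fold or more in 4 of 8 type 2 and class II markers (median 1.07), with 1 lower. The same held for 2 of 6 type 1 markers and 2 of 7 macrophage markers. In P2, Itgax was above P1 by at least 5.375, H2-Eb1 by 2.10 and Wdfy4 by 2.385. P4 exceeded P2 by 2-fold in 0 of 8, 0 of 6 and 0 of 7 markers of these lists. The part of antigen-presenting cells in the P3 and P4 levels of Ifng, Il10, Il21, Il2 and Csf1 was not tested.
Of 10 B cell markers, 3, 4, 9 and 6 were above background, with summed levels of 3.04, 2.91, 4.002 and 2.83. All 7 regulatory T cell markers were above background in P2, P3 and P4 and 6 in P1, with summed levels of 2.99, 2.73, 4.55 and 4.05, and Foxp3 stood at -2.97, -3.27, -1.03 and -1.97. Against P1, 4 of these 7 were higher in P4 by 2-fold or more, with a median of 2.19. Of 4 CD4 T cell markers, Cd4 stood between 0.13 and 0.76 and Cd40lg was not above background on any array. The other 2 were higher in P4 than in P1. Zbtb7b, which encodes the CD4 lineage factor ThPOK, was not above background in P1 (-6.24). It stood at -2.34 in P2, -0.10 in P3 and -1.87 in P4. Zbtb7b thus exceeded P1 by at least 2.27 in P4 and by at least 1.80 in P2, and was highest in P3. Cxcr5 stood at -0.93, 2.74, 2.57 and 0.55. The part of these cells in the P4 levels of Il10 and Il21 was not tested.

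Among 26 other cytokine genes, few were detected outside P3. In all, 6 were above background in P1, 9 and 15 in P2 and P3, and 6 in P4. P4 and P1 were 2-fold apart in 0 of them in either direction, with a median of 0.15 over the 7 measured against -0.06 over all genes. Against P3, 6 of 15 measured were lower in P4, among them Ebi3, a subunit of interleukins 27 and 35, by at least 5.01, Il15 by 3.92 (1.33 in P3, -2.58 in P4), Il1b by at least 3.33 and Il18 by 3.04. Il4, Il5, Il9 and Il13, cytokines of type 2 responses, were not above background on any array. The interleukin 16 gene Il16 stood at 3.37, 3.28, 3.45 and 3.60.

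The other TNF superfamily ligand genes were partly higher in P4. Of 14 such genes 13 were on the array, and against P1 5 of 10 measured were higher by 2-fold or more and 0 lower, with a median of 1.30. Fasl, the death ligand of cytotoxic cells, stood at -1.99 (P1), 1.87 (P2), 4.34 (P3) and 3.61 (P4), with its P1 spot in a locally bright area. Tnfsf14, which encodes LIGHT, stood at -1.69, 1.84, 2.41 and 1.12. Tnfsf4, which encodes OX40 ligand, and Tnfsf13b, which encodes BAFF, were not above background in P1 or P2, and in P4 they were at least 2.49 and at least 2.48 above P1. Against P3, 5 of 11 were lower in P4, including Tnfsf4 by 1.76 and Tnfsf11, which encodes RANK ligand, by 1.64.

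**Figure D4:**
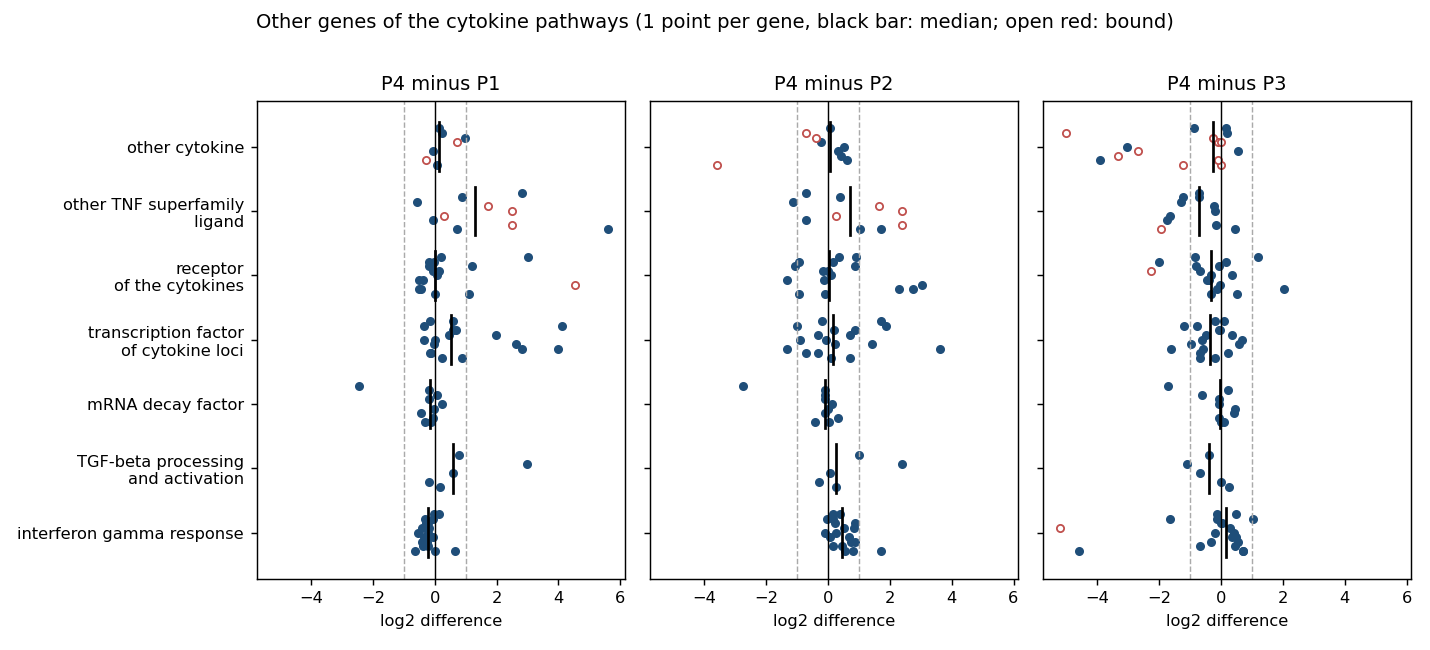
Log2 difference of P4 from P1, P2 and P3 for single genes of 7 lists around the cytokines, with filled points for genes above background on both arrays, open points for bounds, black bars for medians over the measured genes and dashed lines at 2-fold. Against P1, genes of the TNF superfamily ligand, transcription factor, receptor and TGF-beta processing lists reach beyond 2. The mRNA decay factor gene Zc3h12a lies at -2.435 in that panel. Against P3 the list medians lie between -0.73 and 0.16.

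Receptor genes of the 10 cytokines were nearly all present, with 15 of 17 above background in P1, 16 and 17 in P2 and P3, and 16 in P4. Of 16 measured against P1, 4 were higher in P4 by 2-fold or more and 0 lower, with a median of -0.001. Il2ra, the high-affinity chain of the interleukin 2 receptor, was not above background in P1 (-3.98) and stood at -2.48 in P2, 0.57 in P3 and 0.55 in P4. Il10ra stood at 0.82, 2.93, 4.68 and 3.85, so the receptor gene, like Il10, was highest in P3 and P4. Ifngr2, a chain of the interferon gamma receptor, stood at 2.26 in P1 and 1.74 in P4, and was lower by 2.74 in P2 and by 2.02 in P3 than in P4. Tgfbr3, which presents TGF-beta to its receptors, had the same order, with 2.06 (P1), -0.70 (P2), 0.41 (P3) and 1.60 (P4). Ifngr1 was highest in P2 at 5.70 and lowest in P4 at 4.39. Il2rg and Il21r had ranges of 0.35 each.

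All 18 transcription factor genes of cytokine loci were above background on every array. P4 exceeded P1 by 2-fold or more in 5 of them and was lower in 0, with a median of 0.52. Bhlhe40, which promotes cytokine transcription in T cells, stood at -0.77, 1.46, 4.53 and 3.33. Maf, an activator of Il10, stood at -1.97, -1.63, 2.58 and 1.998, with both CD62Llow subsets high. Prdm1, which encodes BLIMP-1, stood at -0.62, 0.58, 3.00 and 2.02. Tbx21, which encodes T-bet and activates Ifng, stood at 0.17, 4.28, 4.60 and 2.98. P4 was 1.31 below P2 in Tbx21 and 0.44 above P2 in Ifng. The part of any of these factors in the cytokine levels was not tested. Jun, Fos, Rela, Rel and Nfatc1 differed by at most 0.67 between P4 and any other subset. Nfatc2 was lower in P4 than in P2 by 1.01 (2.02-fold) and than in P3 by 0.77. Nfkb1 was higher in P4 than in P2 by 0.70, with its P4 spot in a locally bright area. Batf was 0.875 higher in P4 than in P1.

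Most of the 10 listed mRNA decay factor genes encode proteins that shorten the life of cytokine transcripts. Of the 10, 1 was at least 2-fold apart in P4 from each other subset. Zc3h12a, which encodes the RNase Regnase-1, stood at -0.10 (P1), 0.21 (P2), -0.83 (P3) and -2.53 (P4). The other 9 differed by at most 0.62 in any pair with P4. Of 10 genes of TGF-beta processing, 5 were above background on each array, and Lrrc32, which encodes the latent TGF-beta carrier GARP, stood at -3.49, -2.90, 0.59 and -0.51. Among 20 interferon gamma response genes, 0 of 19 measured were at least 2-fold apart between P4 and P1, with a median of -0.21, although Ifng differed by 4.42. Iigp1, an interferon-induced GTPase, stood at 3.54, 1.19, 1.86 and 2.90, so P1, the subset lowest in Ifng, was highest in Iigp1. Against P3, Cxcl9 and Ciita were lower in P4 by at least 5.21 and by 4.59, and both genes are also expressed by antigen-presenting cells.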

How the data were processed

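Cy3-labelled RNA of 4 sorted CD8 T cell subsets was measured on 1 Agilent array each, per the labels' protocols. The deposited spot intensity comes from Feature Extraction 11.0.1.1, per the file headers, and its processed signal is corrected for background, with no normalization between arrays. The deposited value table holds log2 values with equal quantiles in every column, read from the values as quantile normalized, and served as an alternative.

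Outlier spots and control spots were left out, repeated spots averaged, and log2 processed signals set relative to the 75th percentile over probes (315 to 550 intensity units). RefSeq accessions named 32988 of 56597 probes (58.3%) through the GRCm38.p6 gene table. Of several probes of a gene, the one with the highest mean level over the arrays stood for it. A spot was taken to lie in a locally bright area where at least 3 neighbours within 32 position units (5 on P3) were 2-fold above the other arrays. Genes outside the family are named from fixed lists, where 2-fold apart in a pair with P4 or of the widest range, or as the 3 nearest in course to each member with a range of at least 2, clones and gene models left out. Further list members are named for their role in the pathway, after their values were seen. Counts use a 2-fold threshold and no test, since each subset has 1 array. Counts were also tested on simulated data. Members and lists were chosen with earlier results of these data known. Alternatives were other scalings, filters, probe rules, normexp correction with an offset of 50, and the 75th percentile over spots, which was added after seeing the data. The planned correction used median signals, the foreground column in the files. Python 3.11.15, numpy 2.4.6, pandas 2.3.3 and limma 3.58.1 were used.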

Additional observations from a re-analysis of the deposited data

How the results depend on the processing

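No paired analysis was possible because each subset has 1 array and the labels give no replicate numbers. No difference of at least 2-fold changed sign under any alternative. Members at least 2-fold apart numbered 4 for P4 minus P1, 5 for P4 minus P2, 3 for P4 minus P3, 2 for P2 minus P1, 5 for P3 minus P1 and 4 for P3 minus P2. Over genes above background on both arrays, which leaves out every bound, these were 2 (P4 minus P1), 1 (P4 minus P2), 2 (P3 minus P1), 1 (P3 minus P2) and 1 (P2 minus P1). In the authors' value table, which lists 5 of the 10 members (Ifng, Tnf, Lta, Ltb and Tgfb1), each of the 6 counts was 1. After normexp correction they were 3 for P4 minus P2, 1 for P4 minus P3 and 1 for P2 minus P1. At 4-fold they were 2 for P4 minus P2, 0 for P4 minus P3 and 1 for P2 minus P1. The 3 members higher in both CD62Llow subsets became 0 where every array had to pass background and in the authors' table. Those settings could not show them, since each was not above background on some array and none is listed in that table. The 1 member higher in both CD44high subsets, Csf2, could not be shown in those settings for the same reasons. It became 0 at 4-fold, and after normexp or quantile normalization. Other counts stayed within 1.5 times. Over all genes, the numbers apart in P4 were 948 against P1, 1081 against P2 and 1824 against P3. They became 517, 657 and 919 in the authors' table, 489, 592 and 1042 after normexp, 361, 326 and 603 at 4-fold, and 2146, 2251 and 3232 without filter or floor. The numbers for P2 minus P1, P3 minus P1 and P3 minus P2 were 943, 2743 and 2272. They became 601, 1544 and 1234 in that table, 530, 1742 and 1410 after normexp, 331, 1145 and 851 at 4-fold, and 2105, 4442 and 3849 without filter or floor. With both arrays above background they were 605, 1732 and 1489, and 516 for P4 minus P1. Without filter or floor the median over all genes ran from -0.36 to 0.23. The P4 minus P3 difference of Ifng was -1.33, and -1.79 after normexp. Without genes in locally bright areas, Il21 left every pair with P2 and Tgfb1 every pair with P1. Dim signal limits Il2, Il21 and Csf2, and no variation between mice could be measured.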
